A study of Mus musculus with 4 samples.

Results

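Premyelinating oligodendrocyte genes are a set of 10 genes around Gpr17 that mark the stage between the dividing precursor and the myelinating oligodendrocyte. They are Gpr17, Bcas1, Fyn, Itpr2, Tmem163, Rras2, Neu4, Tns3, Prom1 and the long non-coding RNA 9630013A20Rik. The set was chosen by name, and all 10 were found, each on a single row, among 35869 gene rows. RNA was sequenced from oligodendrocytes sorted as O4+GalC+ cells from the cortex of mice at postnatal day 5. The 2 wild-type libraries are WT 1 and WT 2, and the 2 labelled Zfp488 KO, KO 1 and KO 2, come from mice carrying a knock-in allele on both chromosomes (Zfp488KI/KI); no group had a treatment in the labels. Strain, allele structure and animals per library are not stated in the sources used here, and nothing says that both libraries of a genotype are from different animals. P-values therefore reflect nothing beyond the spread of these 4 libraries, and that spread may be technical.

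The targeted gene itself, a zinc finger factor of the oligodendrocyte lineage, was at 6.61 and 5.29 FPKM (WT 1, WT 2) against 4.82 and 4.11 (KO 1, KO 2) (FPKM are read fragments scaled to transcript length and library size). Its log2 difference was -0.34 (SE 0.33; adjusted p = 0.95 by limma, a linear model with variances shared across genes). Since the allele's structure is not known here, this level does not check the labels. Transcripts of both stages around the premyelinating one were read. Mbp, a myelin protein, was at 103, 74.1, 65 and 29.6 FPKM in WT 1, WT 2, KO 1 and KO 2. The precursor receptor Pdgfra was at 18.5, 26.8, 40.2 and 42.5 FPKM. Bulk RNA does not tell which of the sorted cells held these transcripts. Among 30 listed genes of myelin and mature oligodendrocytes, only Mal, Klk6 and Aspa stayed under 0.1 FPKM in all 4 libraries. Most of the list was read: 24 of its genes reached 1 FPKM in each WT library, against 23 for KO 1 and 21 for KO 2.

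Oligodendrocyte precursors divide, migrate and then leave the cell cycle. On commitment they pass through a short premyelinating stage in which the cell extends branched processes, and only afterwards switch on the major myelin proteins. Gpr17, a G protein-coupled receptor related to receptors for nucleotides and cysteinyl leukotrienes, is turned on at commitment and turned off before myelination, and its activity holds cells back from maturing.

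Gpr17 had nearly the same mean level in both genotypes, while most other members had lower means in KO. The mean of Gpr17 was 127 ± 54.9 FPKM for WT against 129 ± 74.4 FPKM for KO (SD, n = 2). Within a library, Bcas1, Fyn, Neu4 and 9630013A20Rik were lower relative to Gpr17 in both KO libraries than in either WT library. So were 3.62% of all tested rows, a share kept low in part by the difference of Gpr17 between library numbers. The same held for 10 of 24 other tested genes of this stage and for 14 of 25 tested myelin genes. The 9630013A20Rik transcript also had the largest difference of the set in absolute level, 92.9 ± 42.9 FPKM for WT against 37.8 ± 25.2 FPKM for KO (SD, n = 2). None of the differences in absolute level passed the test across all genes, and the levels relative to Gpr17 were not tested. Levels of Gpr17, Bcas1, Fyn and Neu4 differed more between libraries numbered 1 and 2 than between genotypes. In bulk samples such as these, fewer cells of a stage and less RNA per cell cannot be told apart.

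Start-region sequences are shown for 3 tested members. In each, the searched window of 250 bases upstream of the RefSeq transcript start holds no annotated exon. The 9630013A20Rik transcript had the largest genotype difference, Itpr2 had a small one, and Rras2 was the only tested member that was not lower in the libraries numbered 2. Windows are from RefSeq on GRCm38.p6, 5′ to 3′ on the gene's own strand, and capitals mark any match to the motifs searched.
9630013A20Rik (chr14:84476425-84476674, minus strand): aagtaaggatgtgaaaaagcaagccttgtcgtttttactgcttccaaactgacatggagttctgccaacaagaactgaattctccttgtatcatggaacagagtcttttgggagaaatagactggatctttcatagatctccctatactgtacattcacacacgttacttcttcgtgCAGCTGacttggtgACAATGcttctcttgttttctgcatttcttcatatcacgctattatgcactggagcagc
Itpr2 (chr6:146502224-146502473, minus strand): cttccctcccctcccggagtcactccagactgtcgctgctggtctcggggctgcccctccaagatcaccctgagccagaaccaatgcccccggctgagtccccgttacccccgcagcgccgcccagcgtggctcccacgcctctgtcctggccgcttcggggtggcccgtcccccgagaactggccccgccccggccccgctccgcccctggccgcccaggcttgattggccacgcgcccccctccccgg
Rras2 (chr7:114117782-114118031, minus strand): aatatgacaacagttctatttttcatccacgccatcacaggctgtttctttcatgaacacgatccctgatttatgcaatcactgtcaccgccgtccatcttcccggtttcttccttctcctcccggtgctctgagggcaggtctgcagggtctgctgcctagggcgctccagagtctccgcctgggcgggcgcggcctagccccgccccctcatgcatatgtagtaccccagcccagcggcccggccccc

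The motifs searched on both strands were CAGCTG, an E-box form bound by basic helix-loop-helix proteins, ACAATG and ACAAAG, forms of the site of Sox proteins, and TATAAA, the core of the TATA box. No overlap between motifs occurred in the windows printed. The 9630013A20Rik window holds CAGCTG with its first base at position -73 and ACAATG with its first base at position -59, counted back from the transcript start at -1. Among all 32817 promoter windows of that length, CAGCTG was in 13%, ACAATG in 10.7%, ACAAAG in 16.5% and TATAAA in 12.4%. Windows of 8 of the 10 members were searched, and Gpr17 and Bcas1 were not among them. Of these 8 members, CAGCTG was in 1, ACAATG in 2 (9630013A20Rik and Tns3), and ACAAAG and TATAAA in 0. The GC content of the windows printed was 41.2% for 9630013A20Rik, 59.6% for Rras2 and 74.4% for Itpr2, against a median of 52.4% over all windows. These matches describe the letters in the windows and were not tested as binding sites.

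Because FPKM is scaled to transcript length, levels can be set side by side between genes, and the members fell into 3 tiers. By mean FPKM in WT the order was Gpr17 (127), 9630013A20Rik (92.9), Fyn (91.4), Tmem163 (51.2), Bcas1 (50.5), Neu4 (47.7), Rras2 (6.75), Itpr2 (5.89), Tns3 (0.599) and Prom1 (0.223). Neighbours within the top 6 overlapped in the range of their WT libraries, except that both WT values of Fyn were above both of Tmem163. Rras2 and Itpr2 overlapped too. Compared within each of the 4 libraries, Gpr17 was above 9630013A20Rik and Fyn was above Tmem163. The gaps between the tiers, from Neu4 to Rras2 and from Itpr2 to Tns3, were present in every library. In KO the mean level of 9630013A20Rik (37.8 FPKM) came to lie among those of Neu4 (38.3), Tmem163 (37.3) and Bcas1 (33.2), below Fyn (65.5).

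**Figure D1:**
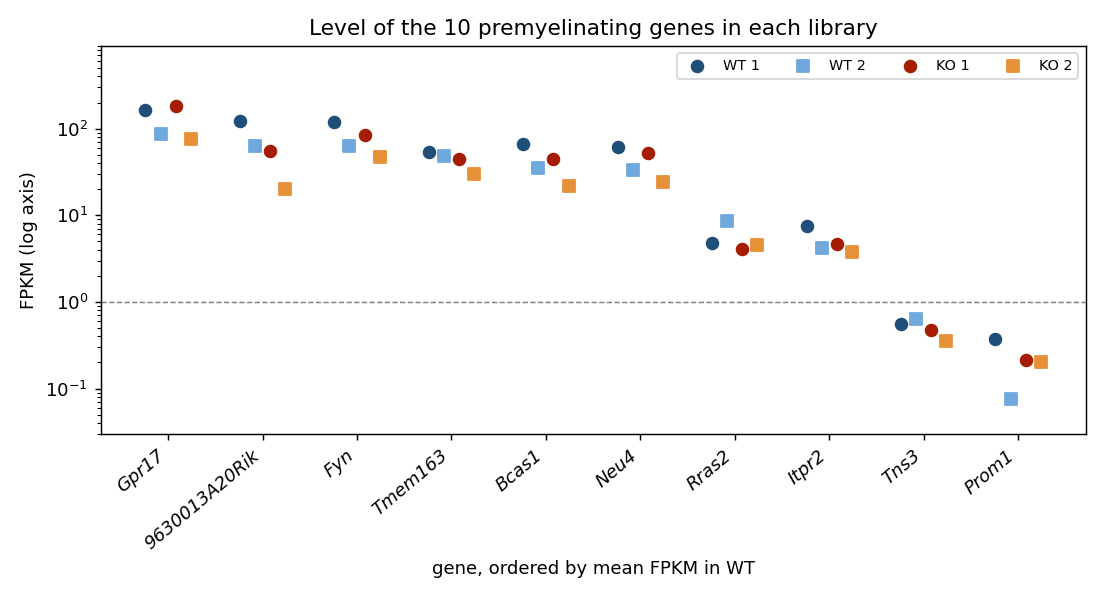
FPKM on a log axis for the 10 genes in each of the 4 libraries (circles for libraries numbered 1, squares for those numbered 2, blue for WT, red and orange for KO), with a dashed line at 1 FPKM. Gpr17 was highest in every library, and Tns3 and Prom1 stayed below 1 FPKM in all 4.

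Gpr17 was at 165 FPKM in WT 1 and 87.8 in WT 2, and at 182 FPKM in KO 1 and 76.4 in KO 2. The highest and the lowest library were thus both KO, and the genotypes overlapped. On the log2(FPKM + 1) scale the difference of KO minus WT was -0.032 (SE 0.51), with an adjusted p = 0.998 by limma. Rescaling each library to the same total (TPM) turned the sign of that difference (0.067), as did quantile normalization (0.08), leaving out WT 1 (0.42) and leaving out KO 2 (0.59). In the GRCm38 annotation the gene occupies 31942997 to 31949636 of chromosome 18 (minus strand), with 2 exons and a coding sequence of 1017 bp. The whole gene lies inside Lims2, which is read from the opposite strand and encodes an adaptor of integrin adhesions, and 188 bp of exon are shared, 3.62% of the Gpr17 exons. The strand setting of the counting is not given, so reads of that stretch cannot be assigned. Lims2 was at 139 and 90.2 FPKM (WT) against 102 and 51.4 (KO) (log2 difference -0.62, SE 0.40), a different order from that of Gpr17.

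Bcas1 encodes a protein that marks oligodendrocytes at the onset of myelination. It was at 66.2 and 34.8 FPKM (WT 1, WT 2) against 44.4 and 21.9 (KO 1, KO 2). KO 1 lay between the WT libraries and KO 2 below both, so the groups overlapped (log2 difference -0.60, SE 0.47; limma adjusted p = 0.936). The size of the difference depended on single libraries: it was -0.11 without KO 2 and -0.15 without WT 1, but -1.10 without KO 1 and -1.06 without WT 2. Its gene occupies 170346991 to 170427845 of chromosome 2 (minus strand). Bcas1os2, an antisense RNA within it (170356361 to 170380435), was at 86.3 and 44.6 FPKM (WT) against 58.3 and 25.7 (KO). It was above Bcas1 in every library and ran in the same order, although only 34 bp of its annotated exons coincide with Bcas1 exons. Without the strand setting, reads of that stretch cannot be assigned to either gene.

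Fyn, a tyrosine kinase of the Src family, relays signals from surface adhesion molecules to the cytoskeleton and to local translation of Mbp in the growing processes. Its levels were 119 and 63.5 FPKM (WT) against 83.8 and 47.2 (KO). The groups overlapped, with KO 1 above WT 2, and the log2 difference was -0.46 (SE 0.42; limma adjusted p = 0.949). It was -0.013 without WT 1 and -0.055 without KO 2, but -0.87 without KO 1 and -0.91 without WT 2. The gene lies on chromosome 10 (39368855 to 39565381, plus strand).

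Neu4, a sialidase that removes sialic acid from glycans, followed Gpr17 more closely than the other members did. It was at 62.1 and 33.3 FPKM (WT) against 52.4 and 24.3 (KO), overlapping between genotypes (log2 difference -0.34, SE 0.48; limma adjusted p = 0.984). Without WT 1 the difference was 0.1 and without KO 2 it was 0.2, so its sign rested on those libraries. Neu4 lies on chromosome 1 (94020451 to 94028334, plus strand).

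The 9630013A20Rik transcript is a spliced long non-coding RNA on chromosome 14 (84458639 to 84476424, minus strand), which overlaps the protocadherin gene Pcdh17 on the opposite strand and shares 0 bp of exon with it. Its levels were 123 and 62.6 FPKM (WT 1, WT 2) against 55.6 and 19.96 (KO 1, KO 2). KO 1 was the nearest to the WT pair and still below WT 2, so the genotypes did not overlap. The log2 difference was -1.37 (SE 0.58), at percentile 1.03 of all tested rows, with an unadjusted p = 0.0634 and an adjusted p = 0.885 by limma. When libraries were left out in turn the difference lay between -0.65 (without KO 2) and -2.08 (without KO 1). Pcdh17 itself was at 1.54 and 1.81 FPKM (WT) against 2.15 and 1.53 (KO).

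Tmem163, a zinc-binding membrane protein of intracellular vesicles, was at 54.4 and 48.1 FPKM (WT) against 44.7 and 29.8 (KO). Both KO libraries were below both WT libraries, and the WT pair lay close together (log2 difference -0.47, SE 0.27; limma adjusted p = 0.914). Without KO 2 the difference was -0.19 and without KO 1 it was -0.76. Its gene is on chromosome 1 (127486546 to 127679548, minus strand), and 152 bp of its exons, 3.54%, are shared with Mgat5 on the opposite strand, which was at most 0.391 FPKM.

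Rras2, a small GTPase of the Ras family, was at 4.81 and 8.68 FPKM (WT) against 4.03 and 4.52 (KO). Both KO libraries were below both WT libraries, but KO 2 and WT 1 were close and the difference rested on WT 2: without it the log2 difference was -0.14, against -0.51 (SE 0.39; limma adjusted p = 0.936) with all 4 libraries. Itpr2, an inositol trisphosphate receptor that releases calcium from the endoplasmic reticulum, was at 7.58 and 4.21 FPKM (WT) against 4.64 and 3.8 (KO). WT 1 stood above the other 3 libraries, and without it the difference was -0.00038 on the log2 scale, against -0.36 (SE 0.39; limma adjusted p = 0.966) with it. Rras2 lies on chromosome 7 (114046782 to 114117781) and Itpr2 on chromosome 6 (146108299 to 146502223), both on the minus strand.

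The remaining members were read at low levels and did not pass the filter for testing, 1 FPKM or more in 2 or more libraries. Tns3, a tensin that links integrins to actin, was at 0.556 and 0.642 FPKM (WT) against 0.471 and 0.354 (KO), with both KO libraries below both WT libraries (log2 difference -0.18, SE 0.16, with no filter; limma adjusted p = 0.865). Prom1, a glycoprotein of membrane protrusions, was at 0.371 and 0.075 FPKM (WT) against 0.214 and 0.201 (KO), with the KO values between the WT values. From the size of the steps between low values, these levels correspond to about 104 to 210 reads per library for Tns3 and 13.4 to 56.2 for Prom1. The corresponding figure was at least 566 for each of the 8 tested members and reached 37400 for Gpr17 in KO 1. These read numbers are approximate, since the lengths behind the FPKM are unknown here.

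Of the 8 tested members, 0 had an adjusted p under 0.05 by limma, where 0% of all 10754 tested rows did, and 0 had an unadjusted p under 0.05, where 5.65% of all rows did, 2.81% with KO higher and 2.85% with KO lower. These are 302 and 306 rows, and 383 and 181 after TPM rescaling. With library number as a replicate block, 3 of 8 members had an unadjusted p under 0.05 (9.53% of all rows) and 0 an adjusted one. DESeq2 and edgeR were not run, since FPKM are not counts. All 8 had a log2 difference below 0, against 49.99% of all rows, and their median was -0.47, against 8.1e-05 over all rows. KO was below WT in every pairing of libraries for 3 of them, Tmem163, Rras2 and 9630013A20Rik (18.3% of all rows), and above for 0 (16.6% of all rows). Without WT 1 the median of the members was -0.082 and without KO 2 it was -0.15. Without KO 1, 8 of 8 members had KO below WT (32.7% of all rows), and without WT 2 it was 7 of 8 (34.4% of all rows).

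**Figure D2:**
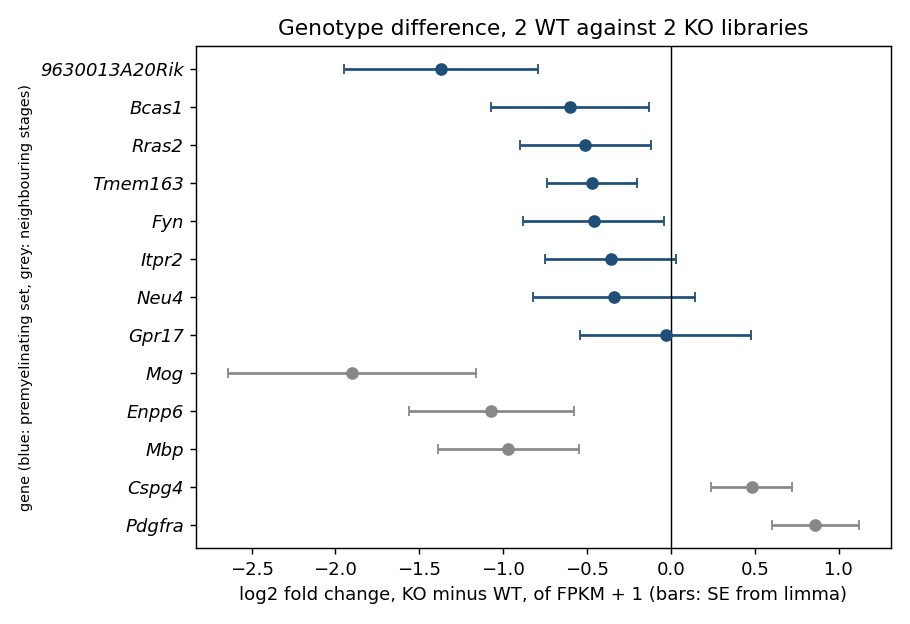
Log2 fold change of KO minus WT on the log2(FPKM + 1) scale (points) with its SE from limma (bars) for the 8 tested members in blue and for genes of neighbouring stages in grey. The members lie between -1.37 (9630013A20Rik) and -0.032 (Gpr17).

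Levels relative to Gpr17 were compared because a ratio within a library depends little on how that library was scaled. The log2 level of Bcas1 minus that of Gpr17 was -1.31 in WT 1 and -1.31 in WT 2, and -2.01 in KO 1 and -1.76 in KO 2. The WT libraries were nearly the same although the level of Bcas1 itself differed 1.9 times between them. For Fyn the relative level was -0.47 and -0.46 in WT and -1.11 and -0.68 in KO. Neu4 had the narrowest gap, from -1.40 and -1.37 in WT to -1.77 and -1.61 in KO. The gap was widest for 9630013A20Rik, from -0.42 and -0.48 in WT to -1.69 and -1.88 in KO. Each of these 4 genes was lower relative to Gpr17 in both KO libraries, which held for 3.62% of all tested rows, while 4.51% were higher. Gpr17 itself differed between libraries numbered 1 and 2. A row with the same level in all 4 libraries therefore overlaps on this scale, which helps to keep both shares low. These 4 genes shared that difference between library numbers.

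The other tested members overlapped between genotypes on this scale. Tmem163 was at -1.59 and -0.86 in WT and at -2.0 and -1.33 in KO. Rras2 ranged from -5.18 to -3.20 and Itpr2 from -5.02 to -4.01 over the libraries. Without KO 2, 7 of 7 members were lower relative to Gpr17 in KO, as were 57.9% of all rows, and without WT 1 it was 6 of 7, with 34.4% of all rows. With Gpr17 as the common denominator the ratios are not independent of each other, and no test was made of them. An exact two-sided permutation test of 2 against 2 libraries cannot give a p below 0.333.

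**Figure D3:**
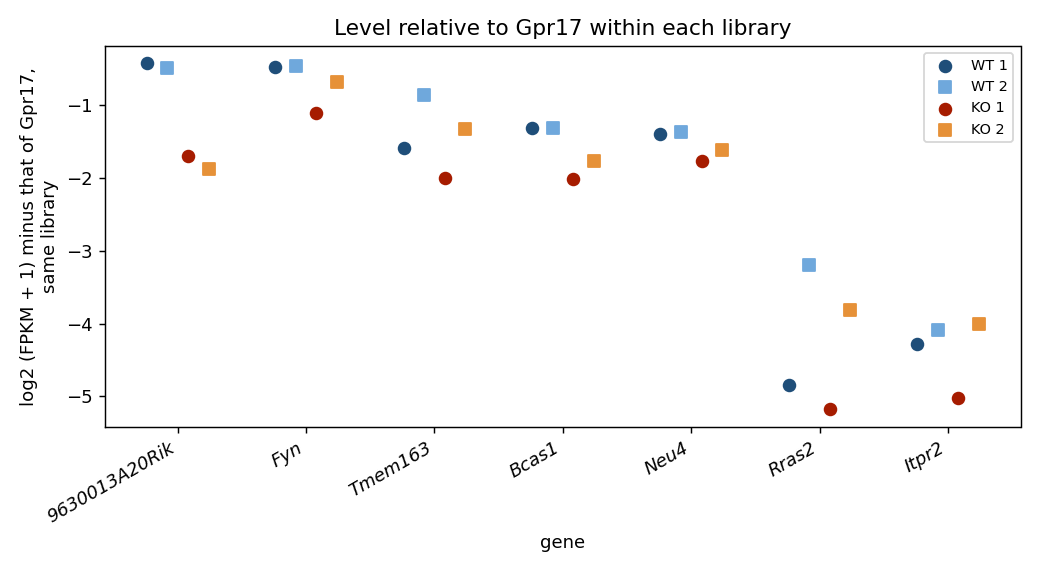
Log2(FPKM + 1) of 7 members minus that of Gpr17 in the same library, for each of the 4 libraries. For 9630013A20Rik, Fyn, Bcas1 and Neu4 the WT points nearly coincide and both KO points lie below them, with the widest gap for 9630013A20Rik.

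Libraries with the same number resembled each other in these genes across genotypes. Gpr17 was 1.88 times higher in WT 1 than in WT 2 and 2.38 times higher in KO 1 than in KO 2. The same ratios were 1.9 and 2.03 for Bcas1, 1.88 and 1.78 for Fyn, 1.86 and 2.15 for Neu4, and 1.97 and 2.78 for 9630013A20Rik. Library 2 was lower than library 1 in both genotypes for 7 of the 8 tested members (26.4% of all rows), Rras2 being the exception. A ratio over 1.5 in both genotypes, a threshold set after the values were seen, was found for 5 of 8 members and for 5.64% of all rows. The sources used here do not say what the number stands for.

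**Figure D4:**
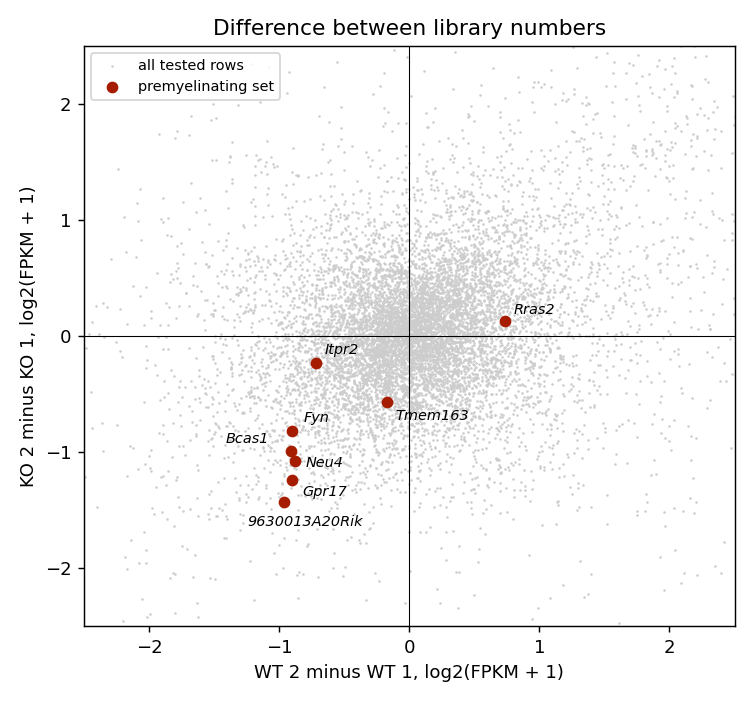
Difference of log2(FPKM + 1) between library 2 and library 1 in WT (horizontal axis) and in KO (vertical axis) for all tested rows (grey) and the 8 tested members (red). Gpr17, Bcas1, Fyn, Neu4 and 9630013A20Rik sit together at about the same negative difference on both axes, Rras2 is on the positive side, and 297 rows beyond 2.5 on either axis are not drawn.

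Markers of dividing and of other cells differed with the library number in the opposite direction. All 10 genes of the cell division list were higher in both libraries numbered 2 than in both numbered 1 (22.3% of all tested rows), with summed levels of 133 and 193 FPKM in WT 1 and KO 1 and of 518 and 533 FPKM in WT 2 and KO 2. The same held for 9 of 12 microglial genes (35.9 and 34.4 against 122 and 133 FPKM) and 8 of 12 vascular genes (0.454 and 9.92 against 80.5 and 73.5 FPKM). It also held for 9 of 12 astrocyte genes (159 and 234 against 276 and 398 FPKM). These counts include untested genes near 0, so they are not directly comparable with the share over tested rows. Tested were 9 microglial, 5 vascular and 8 astrocyte genes. Ccnb1, a mitotic cyclin, was at 22.2 and 46.4 FPKM in WT 1 and KO 1 and at 183 and 198 FPKM in WT 2 and KO 2, and Tyrobp, a microglial adaptor, at 5.34 and 1.54 FPKM against 20.1 and 24.7 FPKM. Cldn5, a tight junction protein of endothelium named after its values were seen, was at 0 and 0.035 FPKM in the libraries numbered 1 and at 26.8 and 26.3 FPKM in those numbered 2, while Pecam1, another endothelial marker, and the leukocyte marker Ptprc stayed under 0.1 FPKM in all 4. Neuronal genes summed to between 17 and 46.5 FPKM, with Rbfox3 and Neurod2 under 0.1 FPKM in every library. The part of these cells in the levels of the members was not tested.

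**Figure D5:**
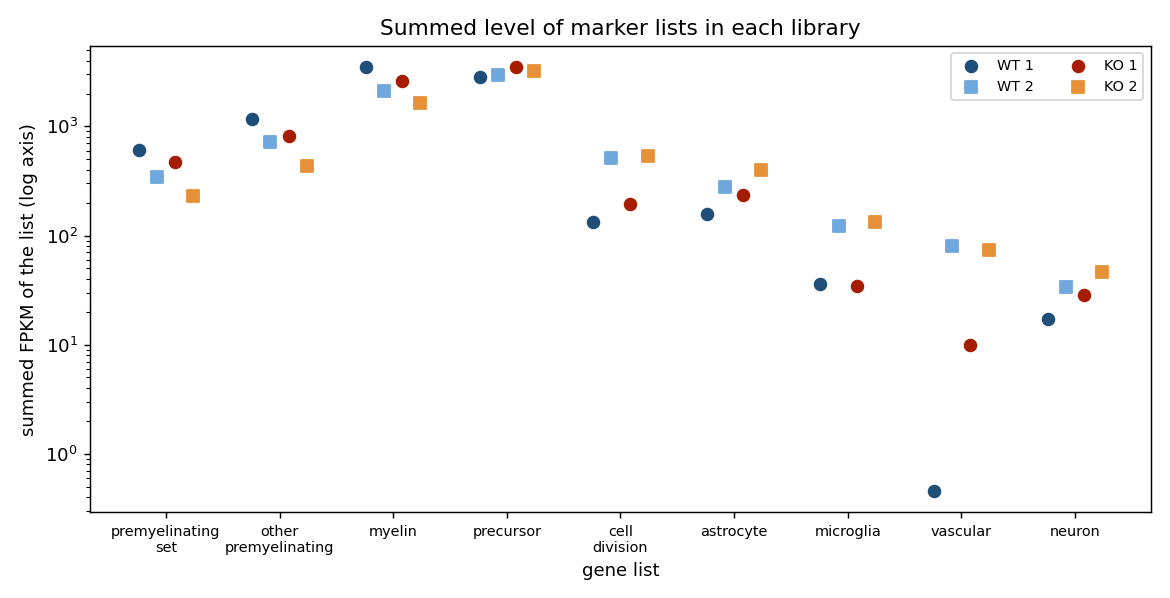
Summed FPKM on a log axis of the premyelinating set and of 8 marker lists in each library. The premyelinating lists and the myelin list are higher in the libraries numbered 1 (circles), whereas the cell division, microglial and vascular lists are higher in those numbered 2 (squares).

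Between the genotypes 10 of 10 cell division genes, 9 of 9 tested microglial genes and 5 of 5 tested vascular genes overlapped. Overlap was also found for 7005 of all 10754 tested rows. Where both libraries numbered 2 are above both numbered 1, as for all 10 cell division genes, the genotypes must overlap. These counts therefore do not show that the genotypes were alike. Cell division genes summed to 133 FPKM in WT 1 against 193 in KO 1. For WT 2 and KO 2 the sums were 518 and 533. In the same order, microglial sums were 35.9 against 34.4 and 122 against 133, and vascular sums 0.454 against 9.92 and 80.5 against 73.5. Over all rows both KO libraries were higher for 16.6% and lower for 18.3%. Astrocyte genes (2 of 8 tested higher in both KO libraries, 0 lower) had a median log2 difference of 0.41, which was -0.0015 without WT 1 and 0.032 without KO 2. Neuronal genes (3 of 5 tested higher, 0 lower) had a median of 0.59, which was 0.27 with 1 FPKM required in all 4 libraries, 0.37 without WT 1 and 0.016 with no filter. Dlx2, a homeobox gene of interneurons that passed the filter only through its KO values, was at 0 and 0.055 FPKM (WT) against 3.65 and 4.84 (KO). Its relative Dlx1 was at 0 and 0.396 FPKM (WT) against 0.176 and 0.091 (KO).

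The other genes of committed precursors and newly formed oligodendrocytes were also compared between genotypes. Of 24 tested, 0 passed the test and 17 overlapped, as did 7005 of all 10754 tested rows. Both KO libraries were below both WT libraries for 6 (18.3% of all rows) and above for 1 (16.6% of all rows). The median log2 difference was -0.35. Relative to Gpr17, 10 of 24 were lower in both KO libraries (3.62% of all rows) and 0 higher (4.51% of all rows). The limit given above for such shares holds here too. Enpp6, a phosphodiesterase of newly forming oligodendrocytes, was at 51.1 and 37.4 FPKM (WT) against 32.7 and 12.4 (KO) (log2 difference -1.07, SE 0.49). Bfsp2, which encodes a filament protein first known from the lens, was at 166 and 82 FPKM (WT) against 89.6 and 33.6 (KO) (-1.07, SE 0.57). Arpc1b, a subunit of the Arp2/3 complex and the only gene of the list with an unadjusted p under 0.05 (0.00591), was at 98.7 and 82 FPKM (WT) against 50.7 and 45 (KO). Without KO 2 the median of the list was -0.043 and without WT 1 it was -0.099.

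The genes of the neighbouring stages were counted in the same way. Relative to Gpr17, 14 of 25 tested myelin genes were lower in both KO libraries and 0 higher. Of 21 tested precursor genes 0 were lower and 5 higher. Over all rows 3.62% were lower and 4.51% higher, shares kept low in part by the difference of Gpr17 between library numbers. In absolute level the myelin list had a median log2 difference of -0.65 and the precursor list one of 0.35, with 0 genes past the threshold in either. The myelin median was -0.27 without WT 1 and -1.02 without WT 2. Mog, a myelin surface gene, was at 17 and 7.77 FPKM (WT) against 5.42 and 0.758 (KO). The widest differences in the precursor list were those of Susd5 (5.24 and 1.34 FPKM for WT, 27.3 and 13.8 for KO) and the potassium channel gene Kcnj16 (0.47 and 1.73 FPKM for WT, 5.79 and 6.22 for KO). Cspg4, which encodes the precursor surface proteoglycan core, was at 25.2 and 27.9 FPKM (WT) against 42.1 and 33 (KO).

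Among all 4267 other rows with a mean of at least 10 FPKM, the genes whose levels over the 4 libraries ran most like those of Gpr17 were Slc25a29, Slc27a4, Mir1897, Ehd3 and Gp1bb. Likeness was the Euclidean distance between log2(FPKM + 1) values centred on each gene's mean. The nearest, the mitochondrial carrier gene Slc25a29, was at a distance of 0.057, with 34.8 and 17.3 FPKM (WT) against 36.2 and 15.1 (KO). Slc27a4, a fatty acid transport protein, was at 45.9 and 25.8 FPKM (WT) against 51.2 and 23.8 (KO) (distance 0.147). Among the members Neu4 came nearest, at rank 20 (distance 0.331), followed by Fyn at rank 94, Bcas1 at rank 156 and Tmem163 at rank 569, while 9630013A20Rik was at rank 2974. The ranks describe 4 libraries and were not tested.

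Genes that can act below Gpr17 were followed as a list. The receptor couples to inhibitory and other G proteins and lowers cyclic AMP. Of 25 tested genes of this list 0 passed the test, 14 overlapped, both KO libraries were higher for 9 (16.6% of all rows) and lower for 2 (18.3% of all rows), and the median log2 difference was 0.14, which was 0.28 with TPM rescaling. Gnai2, an inhibitory G protein subunit, was at 131 and 182 FPKM (WT) against 162 and 151 (KO), and Id2, an inhibitor of differentiation reported to act below the receptor, at 65.4 and 118 FPKM (WT) against 93.6 and 95.5 (KO); both were chosen after their values were seen. The largest differences were those of Alox5, the lipoxygenase at the start of leukotriene synthesis (2.35 and 7.28 FPKM for WT, 1.78 and 0 for KO), and of the nucleotide receptor P2ry1 (1.88 and 0 FPKM for WT, 2.18 and 2.62 for KO). The receptors nearest to Gpr17 in ligand, Cysltr1 and Cysltr2, were listed at 0 in 3 of 4 libraries and were at 0.566 and 0.575 FPKM in WT 2.

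Kinases, regulators and substrates around Fyn lay on both sides of 0. Of 19 tested genes, 0 passed the test, and the median was -0.0045. Both KO libraries were above WT for 3 (16.6% of all rows) and below for 2 (18.3% of all rows). Bcar1, an adaptor phosphorylated by Src family kinases, was at 17.5 and 12.4 FPKM (WT) against 13.1 and 4.81 (KO), and Cntn1, an adhesion protein that signals through Fyn, at 14.4 and 19.2 FPKM (WT) against 25.8 and 23.2 (KO). Of the related kinases Src, Yes1 and Lyn, named after their values were seen, the highest level in any library was 7.23 FPKM (Lyn in WT 2), against at least 47.2 FPKM for Fyn.

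Calcium store genes around Itpr2 likewise had 0 of 13 tested past the threshold, with a median of 0.20. Both KO libraries were higher for 4 (16.6% of all rows) and lower for 1 (18.3% of all rows). Plcg1, a phospholipase that makes inositol trisphosphate, was at 1.61 and 0.704 FPKM (WT) against 2.74 and 6.06 (KO) (log2 difference 1.28, SE 0.49), and Orai3, a calcium entry channel, at 3.83 and 3.97 FPKM (WT) against 5.96 and 8.61 (KO). Itpr1 and Itpr3, the relatives of Itpr2, were at most 0.064 and 0.006 FPKM, so Itpr2 was the highest inositol trisphosphate receptor in each library.

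Of the closest relatives of the members 10 were tested and 0 passed, with a median of 0.087. Both KO libraries were higher for 0 (16.6% of all rows) and lower for 2 (18.3% of all rows). The largest differences were those of the GTPase gene Rras (5.8 and 1.29 FPKM for WT, 4.96 and 8.83 for KO) and of Gpr34, a receptor of microglia (0.004 and 1.01 FPKM for WT, 0.485 and 1.92 for KO). Neu1, the lysosomal sialidase, was at 23.5 and 14.2 FPKM (WT) against 29.7 and 16.4 (KO), below Neu4 in each library, while Neu2 was listed at 0 in all 4. Tns1, Tns2 and Tns4 stayed at or below 0.445 FPKM and Prom2 at or below 0.003 FPKM, so Tns3 and Prom1, low as they were, were the highest of their families in each library. Neu1 and these tensins and Prom2 were named after their values were seen.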

How the data were processed

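RNA was measured in 4 libraries of oligodendrocytes sorted from mouse cortex. TopHat (version not stated) and mm10 are named in the submitters' processing notes. The authors deposited FPKM per gene, 1 column per library, per the file headers. The sources used here do not say which program and annotation gave these values, whether strand was used or whether rows were filtered. Values were taken as log2(FPKM + 1) without further scaling, and limma 3.58.1 (R 4.3.3) compared genotypes, with its trend option, over the 10754 rows reaching 1 FPKM in 2 or more libraries, two-sided, calling Benjamini-Hochberg adjusted p-values under 0.05. The fit was also run on simulated data with independent noise in each library. That setting lacks the difference between library numbers seen here, so it does not check the fit under it. Total reads are not given; the steps between low values, times the longest GENCODE M21 transcript, gave about 37 to 43.7 reads per FPKM on 1 kb (lowest WT 1, highest WT 2). Counts per gene were not rebuilt.

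The members and all gene lists were chosen with earlier results of these data known. Named genes were the members, Zfp488, Enpp6, Mbp, Mog, Pdgfra and Cspg4, up to 2 tested genes with the largest absolute difference from each list (none passed), and the 5 genes nearest to Gpr17. A gene that the rule names is not reported here. Lists are described by counts and medians without a test. Gene positions are from GENCODE M21 (GRCm38).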

Additional observations from a re-analysis of the deposited data

How the results depend on the processing

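Under each of 13 alternatives, 0 genes passed the threshold by limma. The differences of Bcas1, Fyn and Itpr2 stayed below 0 but came near it with a library left out (-1.1 to -0.11, -0.91 to -0.013 and -0.72 to -0.00038), and those of Tmem163, Rras2 and 9630013A20Rik lay between -0.76 and -0.19, -0.88 and -0.14, and -2.08 and -0.65. Genes at an unadjusted p under 0.05 numbered 608, 1123 with no filter, and 322 to 618 with a library left out. With library number as a replicate block they numbered 1025, among them the members 9630013A20Rik, Bcas1 and Fyn, and the smallest adjusted p among the members was 0.413, for 9630013A20Rik, whose adjusted p reached up to 1 in the other alternatives. The shared numbers are not said to pair libraries. The difference between library 2 and library 1 correlated between genotypes at r = 0.29 across genes, which are not independent replicates. Gpr17 turned to 0.067 with TPM rescaling and 0.08 with quantile normalization. With a library left out, Gpr17 lay between -0.65 and 0.59 and Neu4 between -0.88 and 0.2. Left-out libraries moved the number of members with KO below WT from 3 to between 3 and 8, the number lower relative to Gpr17 from 4 to between 4 and 7, the precursor median to between 0.28 and 0.5 and the myelin median to between -1.02 and -0.27. Both counts were recomputed by a choice made after seeing the data. With TPM rescaling or quantile normalization 2 members had KO below WT. A lone library is assumed to vary like those of the other group.

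Several list medians near 0 changed sign, and the cause was not tested. The Fyn list was at 0.02 with median ratio scaling, 0.044 with no filter, 0.0089 with a pseudocount of 0.1, 0.0058 with quantile normalization, 0.096 with TPM rescaling and -0.088 to 0.12 with a library left out. The microglial list was at 0.048 with that pseudocount, 0.077 with TPM rescaling and -0.76 to 1.02 with a library left out. The list of relatives was at -0.11 with 1 FPKM required in all 4 libraries. With a library left out the relatives lay between -0.034 and 0.037, calcium genes between -0.014 and 0.38, astrocyte genes between -0.0015 and 0.93, vascular genes between -1.21 and 1.78, and cell division genes between -0.73 and 1.19. The neuronal list was at 0.016 with no filter. TPM rescaling moved the median of all rows to 0.095.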
